A study of Mus musculus with 6 samples.

Results

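The genes described here encode core parts of endoplasmic reticulum (ER)-associated degradation, or ERAD. They were taken by name from the expression table and are the derlin genes Derl1, Derl2 and Derl3, the HRD1 complex genes Syvn1, Sel1l, Herpud1 and Os9, and the EDEM genes Edem1, Edem2 and Edem3. All 10 are among the 25718 genes of the table and among the 15957 genes that had enough counts to be tested. Poly(A) RNA was sequenced from primary hepatocytes of WT mice (3 libraries) and S100a16KO+/- mice (3 libraries), all fed alcohol, and the comparison asks which transcripts differ when S100a16 is reduced under alcohol. Per the study's methods, male mice of 8 to 10 weeks received a control liquid diet for 5 days, a 5% ethanol diet for 10 days and 1 ethanol gavage of 5 g/kg, and were collected 9 h later. Both genotypes received the same alcohol feeding, so none of the 6 libraries comes from mice without alcohol. The S100a16KO+/- mice carry 1 allele deleted with EIIa-Cre, a germline and body-wide deleter, on a mostly C57BL/6 background, so that the allele is also lost in cells other than hepatocytes. The sample labels call this genotype an S100A16 knockdown. Whether the cells were kept in culture before RNA was taken is not stated, and the labels do not say that each library came from a separate mouse, so p-values measure the spread between these libraries.

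ERAD removes misfolded proteins from the ER. Mannosidases of the EDEM family trim the sugars of a misfolded glycoprotein, lectins such as OS9 read the trimmed sugar and hand the protein to SEL1L, and the ubiquitin ligase HRD1, encoded by Syvn1, marks it while it is drawn through the membrane. Derlins are multi-spanning membrane proteins that take part in this step, and HERP, encoded by Herpud1, holds HRD1 and derlins together. Hepatocytes secrete large amounts of plasma protein and so depend on this pathway, and many of its genes are targets of the unfolded protein response, which acts through the transcription factors ATF6 and XBP1.

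The targeted gene S100a16 had 1001, 1056 and 1107 estimated counts in WT, against 433, 390 and 366 with the deleted allele. Library totals ran from 67658095 to 71807834 estimated counts. These are not 1 per sequenced fragment, since in every library more genes had a count of 4 (931 to 1011) than of 3 (495 to 561) or 5 (244 to 292). The share of mitochondrial transcripts was 16.98% to 21.1%, highest in WT replicate 1 and S100a16KO+/- replicate 2. Levels are given as CPM, counts scaled to a common library size with TMM factors, or as the deposited FPKM, which is per length, where genes are compared with each other. The list of 10 hepatocyte markers added up to between 118640 and 130879 CPM in WT and between 116706 and 129062 CPM in S100a16KO+/- libraries. Most of this sum is Alb, and of the 10 genes Fgb (0.50) and Tat (0.17) were called higher and Ttr (-0.33) and Cyp2e1 (-0.33) lower (log2 fold changes, edgeR).

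The promoters of 3 of these genes are shown because they hold an ER stress element, a sequence that ATF6 and XBP1 are known to bind. The element ERSE joins CCAAT and CCACG with a spacer of any 9 bases. A shorter form, ERSE-II, joins ATTGG and CCACG with 1 base between. Both were searched on both strands in RefSeq promoter windows (GRCm38.p6) that run from 250 bases before each annotated start to 50 after it. The windows of 9 of the 10 genes were in the table, all but that of Derl1. The 250 bases before the start are printed 5′ to 3′ on the gene's strand, with the element in capitals, for Derl3 (chr10:75893148-75893397, plus strand), Syvn1 (chr19:6046326-6046575, plus strand) and Herpud1 (chr8:94386179-94386428, plus strand).
Derl3: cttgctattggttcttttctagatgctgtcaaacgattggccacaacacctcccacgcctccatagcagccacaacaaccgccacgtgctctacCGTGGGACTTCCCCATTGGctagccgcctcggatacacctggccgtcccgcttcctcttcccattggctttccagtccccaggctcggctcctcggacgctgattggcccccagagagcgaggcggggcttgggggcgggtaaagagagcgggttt
Syvn1: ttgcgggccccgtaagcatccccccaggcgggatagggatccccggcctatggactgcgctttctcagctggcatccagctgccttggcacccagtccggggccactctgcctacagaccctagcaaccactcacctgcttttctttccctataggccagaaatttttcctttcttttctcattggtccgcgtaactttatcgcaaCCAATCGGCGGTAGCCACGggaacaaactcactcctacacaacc
Herpud1: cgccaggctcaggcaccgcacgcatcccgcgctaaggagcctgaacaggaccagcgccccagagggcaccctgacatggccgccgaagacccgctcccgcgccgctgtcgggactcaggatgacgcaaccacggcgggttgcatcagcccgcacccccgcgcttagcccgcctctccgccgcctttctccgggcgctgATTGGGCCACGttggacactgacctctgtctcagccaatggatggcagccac

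The ERSE of Derl3 lies on the opposite strand, from -156 to -138 relative to the start, where it reads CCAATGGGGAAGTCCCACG. That of Syvn1 lies on the gene's strand from -44 to -26 and reads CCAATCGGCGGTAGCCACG. The ERSE-II of Herpud1 lies from -52 to -42. ERSE was found in 39 of 32851 promoter windows (0.119%) and ERSE-II in 12 (0.0365%). The XBP1 core TGACGTGG, present in 0.676% of windows, was in none of the 9. The parts of ERSE taken alone are common: CCAAT was in 37.4% of all windows and in 8 of the 9, and CCACG was in 32.8% of all windows and in all 9. A match describes the letters of a window only, and binding was not measured.

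**Figure D1:**
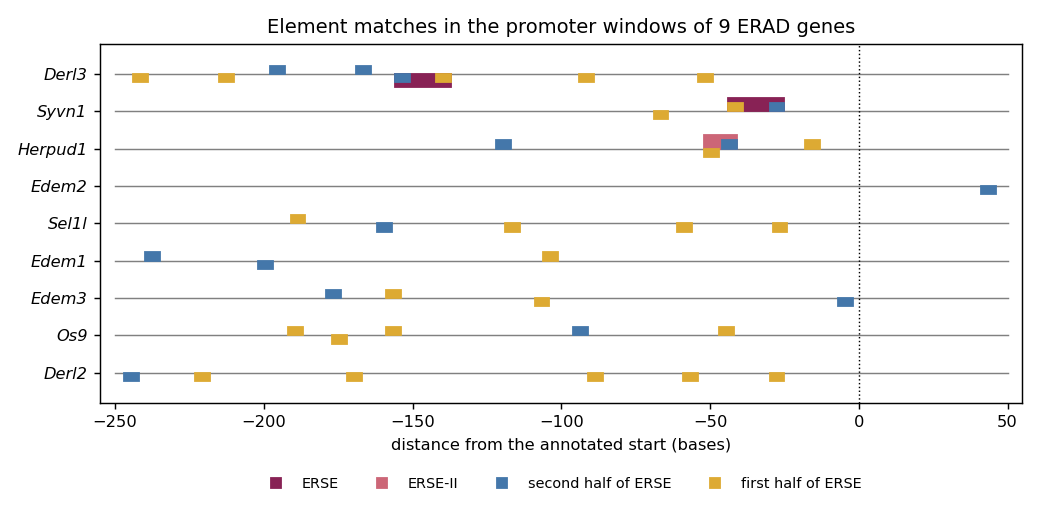
Positions of ERSE, ERSE-II and the separate parts CCAAT and CCACG in the promoter windows of 9 ERAD genes, as distance in bases from the annotated start; marks above a line are on the gene's strand and marks below it on the other. A whole ERSE is present for Derl3 and Syvn1 and an ERSE-II for Herpud1, while the other 6 windows hold only separate parts.

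All 10 ERAD genes rose in S100a16KO+/- hepatocytes, and by very different amounts. In a two-sided quasi-likelihood test with edgeR, adjusted by Benjamini-Hochberg over all tested genes, 10 of 10 were higher at an adjusted p under 0.05 and 0 were lower. Of all tested genes 22.8% were called, 11.6% higher and 11.2% lower. In each of the 10, every S100a16KO+/- library lay above every WT library, which held for 19.2% of all tested genes. The median log2 fold change of the 10 was 0.71, beside 0.01 over all tested genes. The study's criterion asks for a 2-fold change with an unadjusted p under 0.05. Applied here to the edgeR fit, where the study used DESeq2, it called 3 of the 10 (Derl3, Syvn1 and Edem2). Of all tested genes it called 4.52% in either direction, with 2.9% of all tested genes higher. Summed over the 10 genes, the level went from between 1104 and 1116 CPM in WT to between 1777 and 1844 CPM in S100a16KO+/- libraries. In RNA of a whole cell preparation, more cells of a type and more RNA per cell cannot be told apart.

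**Figure D2:**
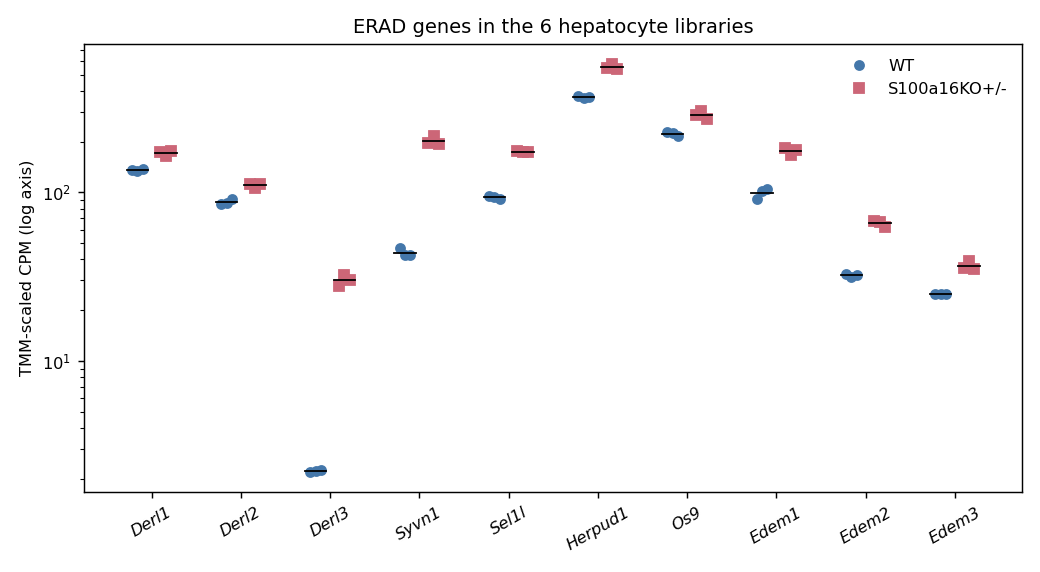
TMM-scaled CPM (log axis) of the 10 ERAD genes in the 3 WT libraries (circles) and the 3 S100a16KO+/- libraries (squares), with black bars at the means. The groups do not overlap for any of the 10 genes, and the gap is widest for Derl3, from 2.20 to 2.26 CPM in WT and from 27.6 to 32.5 CPM in S100a16KO+/- libraries.

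Among the derlins, Derl3 stood far apart from Derl1 and Derl2. Derl3 (ENSMUSG00000009092, chr10:75893413-75895941, plus strand) had 2.20, 2.22 and 2.26 CPM in the WT libraries and 27.6, 32.5 and 30.2 CPM in the S100a16KO+/- libraries. The SD in WT was 0.0352 CPM, and the lowest S100a16KO+/- library was far above every WT library. The log2 fold change was 3.76 ± 0.10 (standard error, edgeR adjusted p = 5.04e-12), 13.5-fold, and it ranked 18 by size of rise among all tested genes. The WT values rest on 150, 156 and 155 estimated counts, which at 4 counts per fragment are 37.5, 39 and 38.75 fragments, so counting error is larger for Derl3 in WT than for any other of the 10.

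Derl1 (ENSMUSG00000022365, chr15:57869502-57892448, minus strand), the derlin with the highest level per length, had 136, 134 and 138 CPM in WT and 173, 164 and 175 CPM in S100a16KO+/- libraries. The groups were separate but close, higher by 0.33 ± 0.05 on the log2 scale (standard error, edgeR adjusted p = 0.000269). Derl2 (ENSMUSG00000018442, chr11:71007164-71019303, minus strand) had 84.7, 86.4 and 90.9 CPM in WT and 111, 106 and 112 CPM in S100a16KO+/- libraries. It too was separate between genotypes, higher by 0.33 ± 0.05 on the log2 scale (standard error, edgeR adjusted p = 0.000454).

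To compare the derlins with each other, the log2 ratio of their CPM (with 0.1 added to each) was taken within each library, which removes any scaling between libraries. For Derl3 over Derl1 it was -5.89, -5.86 and -5.87 in WT and -2.64, -2.34 and -2.53 in S100a16KO+/- libraries. The ratio was higher in every S100a16KO+/- library, by 3.37 on the log2 scale (standard error 0.09), or 10.3-fold. For Derl3 over Derl2 the ratio was -5.21, -5.22 and -5.27 in WT and -2.01, -1.71 and -1.89 in S100a16KO+/- libraries, a difference of 3.37 (standard error 0.09). Both comparisons gave p = 0.1 in a two-sided exact permutation test over the 20 assignments of the libraries (0.15 adjusted over the 3 derlin pairs), and 0.1 is the smallest value that 3 libraries against 3 allow. Derl2 over Derl1, in contrast, was -0.64 ± 0.04 in WT and -0.64 ± 0.01 in S100a16KO+/- libraries (SD, n = 3 each), a difference of 0.0032 with a standard error of 0.0237 (exact permutation p = 0.9). The Derl3 ratios varied more among the S100a16KO+/- libraries (SD 0.15 for each pair) than among the WT libraries (SD 0.02 and 0.03), with S100a16KO+/- replicate 2 the highest and replicate 1 the lowest.

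Per length, Derl3 was the lowest derlin in WT and overlapped Derl2 in S100a16KO+/- libraries. Counts, library totals and FPKM together imply a length of 8996 bases for Derl2, 3718 for Derl1 and 2254 for Derl3. The overlap, the shares and the order by FPKM rest on these lengths. In CPM, Derl3 stayed below Derl2 in S100a16KO+/- libraries, with means of 30.1 and 109.8. The FPKM of Derl3 was 0.914, 1.01 and 1.004 in WT and 12.6, 13.8 and 14.1 in S100a16KO+/- libraries. For Derl2 it was 8.92, 9.90 and 10.3 in WT and 12.6, 11.2 and 13.0 in S100a16KO+/- libraries. Derl3 FPKM per Derl2 FPKM was 0.101 ± 0.00248 in WT and 1.11 ± 0.118 in S100a16KO+/- hepatocytes (SD, n = 3 each). Derl1 remained the most abundant derlin in all 6 libraries, at 34.7, 37.2 and 37.7 FPKM in WT and 47.5, 41.9 and 49.0 FPKM in S100a16KO+/- libraries. Of the summed derlin FPKM, Derl3 held 2.07% ± 0.0259 in WT and 18.9% ± 1.66 in S100a16KO+/- hepatocytes, while the share of Derl1 went from 77.4% ± 0.454 to 64.1% ± 1.346 and that of Derl2 from 20.5% ± 0.452 to 17.05% ± 0.319 (SD, n = 3 each). The smaller shares of Derl1 and Derl2 came beside higher levels of both.

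**Figure D3:**
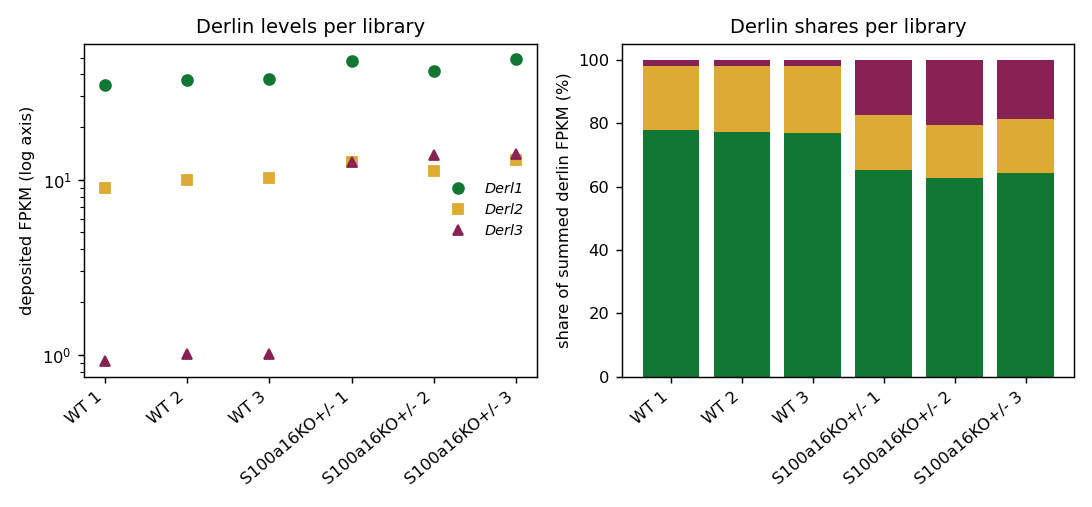
Left, deposited FPKM (log axis) of Derl1 (circles), Derl2 (squares) and Derl3 (triangles) in each library; right, the share of each in the summed FPKM of the 3 derlins, in percent, with the same colours. Derl3 lies far below Derl2 in the WT libraries (0.914 to 1.01 against 8.92 to 10.3 FPKM) and overlaps it in the S100a16KO+/- libraries.

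All 4 HRD1 complex genes rose, and the ligase gene rose by more than the other 3. Syvn1 (ENSMUSG00000024807, chr19:6046576-6053712, plus strand), which encodes the ligase, had 46.5, 42.5 and 42.3 CPM in WT and 196, 216 and 194 CPM in S100a16KO+/- libraries. All 3 S100a16KO+/- values were more than 4 times the highest WT value, and the log2 fold change was 2.21 ± 0.06 (standard error, edgeR adjusted p = 9.39e-12). Sel1l (ENSMUSG00000020964, chr12:91806043-91849157, minus strand), which encodes the adaptor that stabilises the ligase, had 95.2, 94.0 and 90.8 CPM in WT and 177, 174 and 172 CPM in S100a16KO+/- libraries. Its log2 fold change was 0.90 ± 0.05 (standard error, edgeR adjusted p = 1.23e-08). Per length, Syvn1 was below Sel1l in every WT library, with 0.861, 0.796 and 0.821 FPKM of Syvn1 per FPKM of Sel1l, and above it in every S100a16KO+/- library, with 1.95, 2.18 and 1.98.

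Herpud1 (ENSMUSG00000031770, chr8:94386438-94395377, plus strand), which encodes the scaffold protein HERP, had 373, 361 and 368 CPM in WT and 548, 575 and 542 CPM in S100a16KO+/- libraries. The log2 fold change was 0.59 ± 0.05 (standard error, edgeR adjusted p = 4.25e-07), which is smaller than those of Syvn1 and Sel1l although Herpud1 was the most abundant of the 10 genes in both genotypes. Os9 (ENSMUSG00000040462, chr10:127095650-127121131, minus strand), which encodes the lectin, had 228, 225 and 216 CPM in WT and 289, 302 and 274 CPM in S100a16KO+/- libraries. Its log2 fold change of 0.37 ± 0.05 (standard error, edgeR adjusted p = 0.000131) was close to those of Derl1 and Derl2. The last 91 bases of Syvn1 overlap Mrpl49 on the other strand, which had 934 to 978 counts in WT and 772 to 855 in S100a16KO+/- libraries, far below the 2897 to 13978 counts of Syvn1. The first 535 bases of Herpud1 overlap Gm15890 on the other strand, which had at most 48 counts in any library. Whether the counting used strand is not given in the sources used here.

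The EDEM genes rose in the order Edem2, Edem1 and Edem3. Edem2 (ENSMUSG00000038312, chr2:155701677-155729475, minus strand) had 32.9, 31.7 and 32.2 CPM in WT and 67.3, 66.9 and 62.7 CPM in S100a16KO+/- libraries, higher by 1.02 ± 0.06 on the log2 scale (standard error, edgeR adjusted p = 1.17e-08). It lay just past the 2-fold limit of the study's criterion, at 2.03-fold, and it fell below it with limma on log2(FPKM + 1), at 0.95 on that scale. Edem1 (ENSMUSG00000030104, chr6:108828641-108859356, plus strand) had 91.7, 101 and 105 CPM in WT and 182, 167 and 179 CPM in S100a16KO+/- libraries, higher by 0.83 ± 0.06 on the log2 scale (standard error, edgeR adjusted p = 2.44e-07). Edem3 (ENSMUSG00000043019, chr1:151755371-151822051, plus strand) had 24.8 CPM in each WT library and 35.8, 39.3 and 35.1 CPM in S100a16KO+/- libraries, higher by 0.57 ± 0.07 on the log2 scale (standard error, edgeR adjusted p = 2.33e-05). Of the summed EDEM FPKM, Edem1 held 53.8% ± 2.02 in WT and 52.5% ± 1.91 in S100a16KO+/- hepatocytes, Edem2 32.6% ± 1.58 and 36.4% ± 1.203, and Edem3 13.6% ± 0.453 and 11.1% ± 0.803 (SD, n = 3 each). The ranges over libraries of Edem1 overlapped between genotypes and those of Edem2 and Edem3 did not. The summed EDEM FPKM ran from 23.4 to 26.7 in WT and from 43.5 to 48.7 in S100a16KO+/- libraries.

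**Figure D4:**
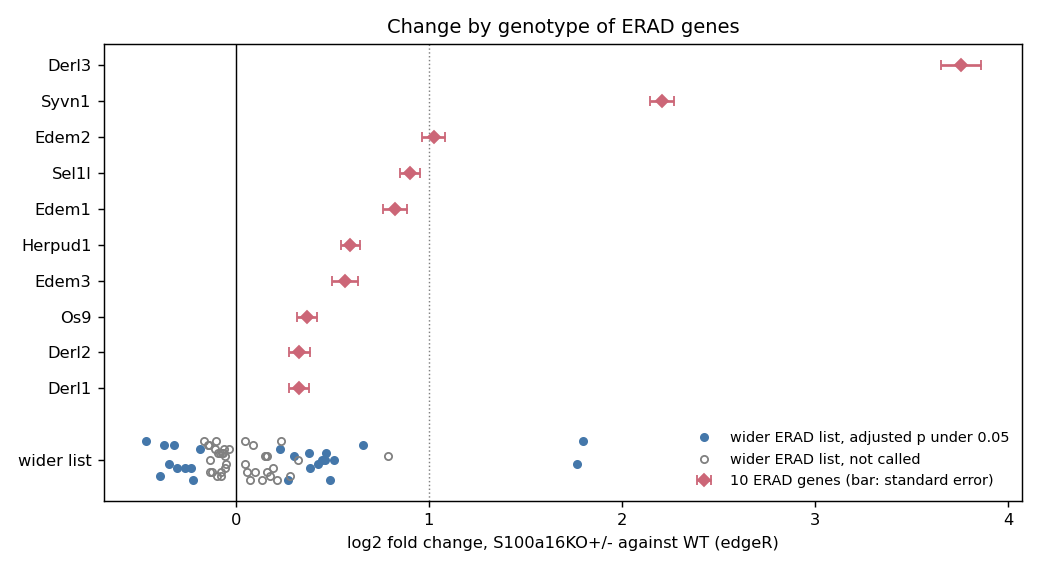
Log2 fold change of the 10 ERAD genes in S100a16KO+/- against WT hepatocytes (diamonds, bars show the standard error), above those of the 62 genes of the wider ERAD list (filled, adjusted p under 0.05; open, not called); the dotted line marks a 2-fold rise. The 10 genes run from 0.33 for Derl1 to 3.76 for Derl3, while the wider list lies on both sides of 0, with Sdf2l1 and Dnajb9 alone beyond the dotted line.

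Ordered by FPKM, the 10 genes spanned from Herpud1 at 140.6 ± 4.28 to Derl3 at 0.976 ± 0.0530 in WT hepatocytes (SD, n = 3). Below Herpud1 came Os9 (75.8 ± 2.83), Derl1 (36.5 ± 1.62), Edem1 (13.8 ± 1.49), Sel1l (9.73 ± 0.360), Derl2 (9.69 ± 0.690), Edem2 (8.30 ± 0.216), Syvn1 (8.03 ± 0.112) and Edem3 (3.47 ± 0.149). In 2 cases neighbours overlapped over their libraries, Sel1l with Derl2 and Edem2 with Syvn1. In S100a16KO+/- hepatocytes the top 3 were the same, Herpud1 at 213 ± 4.03, Os9 at 98.4 ± 1.84 and Derl1 at 46.1 ± 3.75 FPKM. Syvn1 stood next at 37.3 ± 0.383 FPKM, up from place 8 to place 4, and Edem1 followed at 24.5 ± 2.28 FPKM. Sel1l (18.3 ± 0.916) overlapped Edem2 (16.99 ± 0.698), Derl3 (13.5 ± 0.775) overlapped Derl2 (12.3 ± 0.943), and Edem3 came last at 5.16 ± 0.0525 FPKM. The order was the same after the FPKM were scaled again by the TMM factors, but Sel1l and Edem2 then no longer overlapped in S100a16KO+/- libraries.

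**Figure D5:**
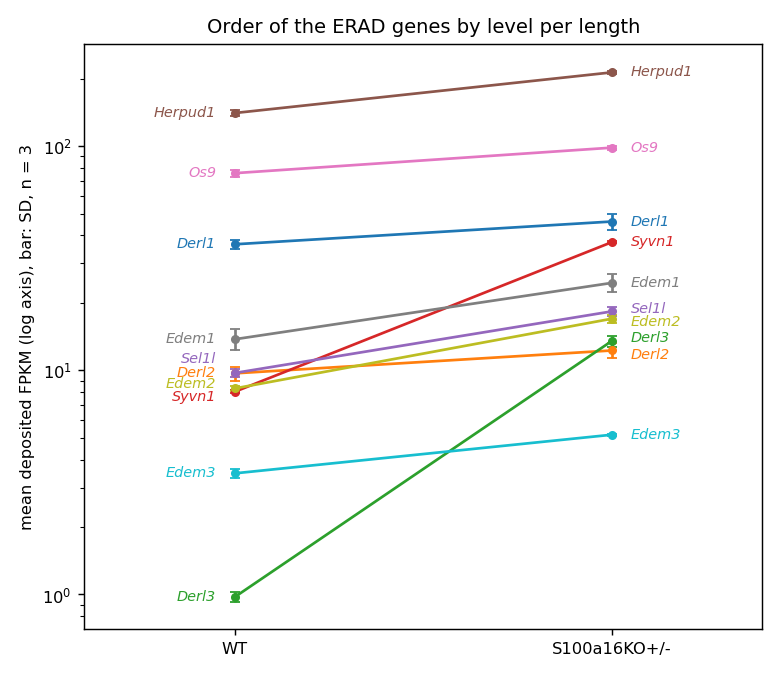
Mean deposited FPKM (log axis) of the 10 ERAD genes in WT and S100a16KO+/- hepatocytes, with bars for the SD over 3 libraries. The lines of Derl3 (0.976 to 13.5) and Syvn1 (8.03 to 37.3) cross those of other genes, while Herpud1, Os9 and Derl1 keep the top 3 places in both genotypes.

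The rest of the pathway did not follow as a block. A wider list of 62 further ERAD genes, all of them tested, had 14 genes higher and 10 lower at an adjusted p under 0.05 in edgeR and 38 not called, with a median log2 fold change of 0.05. With limma on log2(FPKM + 1) 12 were higher and only 3 lower. The share called higher was 22.6%, beside 11.6% of all tested genes. Past the study's criterion were Sdf2l1, from 7.27 ± 0.779 to 25.3 ± 1.08 CPM, and Dnajb9, from 47.1 ± 1.35 to 160.3 ± 8.78 CPM (SD, n = 3 each), which encode lumenal partners of the chaperone BiP. Among the called genes of the list they also rose most, with log2 fold changes of 1.80 and 1.77, followed by Selenos at 0.66, which encodes a membrane anchor for the ATPase p97. The largest falls among the called genes were those of Rnf139 (-0.46, adjusted p = 0.000125), Erlin1 (-0.39, adjusted p = 0.000412) and Rad23b (-0.37, adjusted p = 0.00123, edgeR). Rnf139 encodes another ubiquitin ligase of the ER membrane, Erlin1 a membrane scaffold and Rad23b a shuttle to the proteasome.

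Grouped by role, a grouping made after the values were seen, the share of genes that rose was highest for lumenal-side proteins. The difference between roles was not tested. Of the 6 genes in that group, which are chaperone, lectin and mannosidase genes and Foxred2, 5 were higher and 0 lower. The 5 were Sdf2l1, Dnajb9, Man1b1 (0.51), Dnajc10 (0.49) and Erlec1 (0.27, log2 fold changes). Foxred2, at 0.135 ± 0.0685 CPM in WT, was not called. Of 7 other ER membrane ubiquitin ligases, 0 were higher and 2 lower, Rnf139 and Marchf6 (-0.32). Of 5 ubiquitin-conjugating enzyme genes, Ube2g2 (0.38) and Ube2j1 (0.23) were higher and Ube2k (-0.26) and Ube2g1 (-0.22) lower. Of 10 genes for p97, its cofactors and its membrane anchors, 3 were higher (Selenos, Selenok and Ubxn4) and 1 lower, Vcp, which encodes p97 itself, from 181 ± 5.35 to 159 ± 3.93 CPM (SD, n = 3 each). Of 7 ubiquitin shuttle and holdase genes, 1 was higher (Ubqln4) and 2 lower (Ubqln1 and Rad23b). The remaining 27 genes of the list held 3 higher and 3 lower. Over all tested genes, 11.6% were called higher and 11.2% lower. With limma on log2(FPKM + 1) the calls of Vcp, Marchf6, Ube2k, Ube2g1, Ubqln1 and Ube2j1 were lost. That of Ube2j1 was also lost with the replicate number as a block. The call of Erlec1 was lost without WT replicate 2, WT replicate 3 or S100a16KO+/- replicate 2. Those of Vcp, Marchf6, Ube2k, Ube2g1 and Ube2j1 were each lost in at least 1 fit that left out a library.

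The sensors and transcription factors of the unfolded protein response, listed by name, gave 6 higher, 2 lower and 1 not called of 9 tested, where 11.6% of all tested genes were higher and 11.2% lower. The call of Atf6 was lost with limma on log2(FPKM + 1), and also without WT replicate 2 or S100a16KO+/- replicate 1. The call of Xbp1 as lower was lost without WT replicate 1, S100a16KO+/- replicate 1 or S100a16KO+/- replicate 3. Eif2ak3, which encodes the sensor PERK, had a log2 fold change of 1.59, Creb3l2 1.58, Atf6b 0.75, Ddit3 0.60, Atf4 0.35 and Atf6 0.21, whereas Xbp1 fell by 0.22 and Creb3l3 by 0.25, and Ern1, which encodes the sensor IRE1, was at 0.03 (adjusted p = 0.758, edgeR). The Xbp1 value is for the whole gene and does not separate spliced from unspliced transcripts.

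Beyond the 10 ERAD genes, genes with an ERSE in their promoter window were often higher too. Of the 19 tested genes with an ERSE other than Derl3 and Syvn1, 12 were higher (63.2%) and 1 lower, with a median log2 fold change of 0.81, beside 12.6% called higher and a median of -0.0015 among the 11125 tested genes with a promoter window. Ordered by fold change, the 12 were Creld2, Hspa5, Xlr3b, Spats2l, Xlr3a, Alg12, Hsp90b1, Pdia6, Calr, Dnajc3, Canx and Acacb, from 3.50 down to 0.28. Several of them encode ER chaperones, and Xlr3a and Xlr3b are near-identical copies that could share reads. Alg12 (chr15, minus strand, end 88819318) and Creld2 (plus strand, start 88819646) lie head to head. Their windows could hold the same element, so the 12 genes may not be 12 separate promoters. In WT, Xlr3b had only 14, 8 and 17 estimated counts and Spats2l 17, 16 and 10, so their fold changes rest on few fragments. With ERSE-II, 4 of 8 tested genes other than Herpud1 were higher and 2 lower. With the XBP1 core, 30 of 113 tested genes were higher (26.5%) and 10 lower, and with CCACG alone 13.1% of the tested non-member genes were higher. These counts were made after the values were seen and carry no test.

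Over the 6 libraries the tested genes whose log2(CPM + 1) was most like that of Derl3, among 9042 with a mean FPKM of at least 1, were Ppp1r3g, Sik1, Apoa5, Abcg8 and Stx5a, each with Pearson's r above 0.999. The 6 points share the genotype difference, and 158 genes had an r of at least 0.99, so the order among them says little.

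Within the S100a16KO+/- group the lowest library differed between genes and between units. In CPM, replicate 1 was the lowest of the 3 for Derl3, replicate 2 for Derl1, Derl2 and Edem1, and replicate 3 for the other 6. Among all tested genes, replicates 1, 2 and 3 were the lowest in CPM for 31.1%, 36.6% and 32.3%. In the deposited FPKM replicate 2 was the lowest for most of the genes, namely Derl1, Derl2, Edem1, Sel1l, Herpud1 and Edem2. Replicate 1 was the lowest in FPKM for Derl3, Syvn1 and Edem3, and replicate 3 only for Os9. With each library left out in turn, all 10 genes stayed higher at an adjusted p under 0.05, with log2 fold changes from 3.70 to 3.81 for Derl3, from 2.16 to 2.25 for Syvn1 and from 0.31 to 0.35 for Derl1.

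Transcripts of other liver cells differed between the genotypes in the same preparations. The counts of called markers below stand beside 11.6% of all tested genes called higher and 11.2% called lower. The 10 sinusoidal endothelial markers added up to between 263 and 279 CPM in WT and between 378 and 391 CPM in S100a16KO+/- libraries. Of these 10, 9 were higher and 1 lower at an adjusted p under 0.05 in edgeR. The 10 stellate cell markers went from between 59.3 and 65.2 to between 99.97 and 113.5 CPM, with 5 higher and 0 lower, and the 12 Kupffer cell and macrophage markers from between 176 and 205 to between 208 and 227 CPM, with 4 higher and 0 lower. The erythroid markers, 5 of 7 names in the table, fell from between 215 and 252 to between 23.4 and 26.3 CPM, all 5 lower. Markers of other cells that secrete heavily gave no call for a rise: 11 B and plasma cell markers added up to 10.4 to 11.98 CPM in WT and 7.87 to 9.40 CPM in S100a16KO+/- libraries (0 higher, 1 lower), and the 4 pancreatic acinar markers in the table to 3.51 to 5.00 and 3.83 to 5.28 CPM (0 called of 2 tested), with Cpb1 and Rbpjl at or under 12 counts in every library. The 6 cholangiocyte markers added up to 4.63 to 6.43 and 4.89 to 5.47 CPM (0 higher, 1 lower), with Cftr at or under 12 counts. No listed marker was at 0 in all 6 libraries, and the part of these cells in the rise of the ERAD genes was not tested.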

How the data were processed

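Oligo(dT)-selected RNA of 6 hepatocyte libraries, 3 per genotype, was sequenced from a stranded kit with unique molecular identifiers, and all 6 were used. The authors deposited 1 table with an estimated count and an FPKM value per gene and library. The estimated counts are whole numbers, not scaled for depth, and about 4 of them stand for 1 fragment. The FPKM values were scaled by the authors for length and library size. The submitters' processing notes name cutadapt 1.9, HISAT2 2.0.4, UMI-tools, StringTie 1.3.4d, DESeq2, edgeR and mm10, which is GRCm38, with no role or order. The annotation is not given in the sources used here.

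The estimated counts were tested with edgeR 4.0.16 in R 4.3.3 (TMM, filterByExpr, robust quasi-likelihood fit, genotype only, two-sided, Benjamini-Hochberg over 15957 genes). Standard errors are the log2 fold change over the root of F. The study names DESeq2, which was an alternative (1.42.0), as were limma 3.58.1 on FPKM, other filters and scalings, counts divided by 4, the replicate number as a block and leaving out each library. Derlin ratios were compared by an exact permutation test. A gene at or under 12 counts, or 3 fragments, was treated as near the floor, which covers counting error only.

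The members and lists were chosen with earlier results of these data known. Named are all 10 members, the genes of the wider list past the study's criterion or with its 3 largest rises and falls among called genes, the unfolded protein response genes tested, and the 5 genes most like Derl3. Other names were chosen after their values were seen. Of 67 names on the wider list, 62 are in the table, and 5 are symbols it does not use. The scripts were tested on simulated data with less spread between libraries than the real data and without several counts per fragment. That test checks the code only. Proteins of the derlins were not analysed here.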

Additional observations from a re-analysis of the deposited data

How the results depend on the processing

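All 10 ERAD genes stayed higher at an adjusted p under 0.05 under each of the 14 alternatives, which were DESeq2, median-ratio scaling, both other filters, counts divided by 4, limma on FPKM with either pseudocount, the replicate block and each library left out. The largest adjusted p among them was 0.0374, for Derl2. No pairing of samples by replicate number was seen. Same-numbered libraries deviated from their group means with correlations of -0.05, -0.02 and 0.05, and not every library correlated best with its own number. These values cannot exclude a pairing, since deviations from the mean of 3 libraries are not independent of each other. Under the replicate block 10 of 10 were called, while the block ended the calls of Ube2j1 and Dnajb14 on the wider list. It ended none among the unfolded protein response genes or the glycan processing genes described below. The number past the study's criterion was 3 throughout, except 2 with limma on log2(FPKM + 1), where Derl3 was at 2.88 on that scale. The wider list had 3 genes lower with limma on log2(FPKM + 1) and 3 with log2(FPKM + 0.1), against 10 in edgeR, and all genes called lower numbered 1035 and 1033 there, against 1790; the test, the values and the filter changed together, and the cause was not tested. Leaving out libraries gave 12 to 15 genes of the wider list higher and 7 to 8 lower. The Derl3 against Derl1 difference was 3.37 under the replicate block, with an exact sign-flip p of 0.25, the smallest that 3 pairs allow. The Derl2 against Derl1 difference, which is near 0, ranged from -0.0184 without WT replicate 1 to 0.0216 without WT replicate 3, and was -0.000249 without S100a16KO+/- replicate 2. Depth limits Derl3 in WT most, with 150 to 156 counts.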

Other observations

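Glycan processing genes next to the EDEM step were mostly higher in S100a16KO+/- hepatocytes. Of 9 mannosidase, glucosidase and folding sensor genes, 6 were higher and 0 lower at an adjusted p under 0.05 in edgeR. Over all tested genes 11.6% were higher. The median log2 fold change of the 9 was 0.36. Of the mannosidase genes only Man1b1 was called. DESeq2 also called 6, but limma on log2(FPKM + 1) called 3, without Uggt2, Mogs and Ganab. Uggt1, which encodes the enzyme that tags unfolded glycoproteins for another round of folding, went from 44.4 ± 3.71 to 81.9 ± 3.06 CPM (SD, n = 3 each). Uggt2, its relative, went from 1.46 ± 0.388 to 3.04 ± 0.158 CPM, and Man1b1, Prkcsh, Mogs and Ganab had log2 fold changes of 0.51, 0.36, 0.34 and 0.19. The Golgi mannosidase gene Man1a was at 207.6 ± 1.68 CPM (SD, n = 3) in WT against 213 ± 5.54 with the deleted allele (adjusted p = 0.645, edgeR). Man1a2 (-0.11, adjusted p = 0.361) and Man1c1 (0.38, adjusted p = 0.180) were not called either (log2 fold changes, edgeR).

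The rhomboid relatives of the derlins had no calls. Of 7 such genes tested, 0 passed an adjusted p of 0.05 with edgeR, DESeq2 or limma on log2(FPKM + 1), while 3, 3 and 2 had an unadjusted p under 0.05. Of all tested genes 22.8% were called in edgeR. In edgeR their log2 fold changes ran from -0.36 for Rhbdf2 (adjusted p = 0.0557) to 0.20 for Rhbdd2 (adjusted p = 0.0867).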
